A study of Mus musculus with 17 samples.

Results

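Chemokine genes were followed in E11, a podocyte line of the mouse, on silicone (polydimethylsiloxane) with 3 kinds of surface. The 10 genes, Ccl2, Ccl7, Cxcl1, Cxcl5, Cxcl10, Cxcl12, Cxcl16, Cx3cl1, Ppbp and Csf1, were taken by name as chemokines that these cells make. They were chosen with earlier results of these data known, and are 10 of the 56748 genes in the count table. All 10 passed the filter on low counts that left 15196 genes for testing. Csf1 is not a chemokine by structure but a growth factor for the same cells that several of the others attract. HF was a high fractal surface whose pattern came from tracings of healthy glomeruli in histology (6 libraries), RT carried a round, non-fractal topography (6 libraries), and NT had no topography (5 libraries). All libraries came from this 1 line, and the labels name no altered gene and no added agent in any group. They do not say what separates replicates, so p-values reflect only the variation among these libraries, part of which could be technical.

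Total counts were 16.2 to 17.8 M in HF, 15.7 to 24.1 M in RT and 14.9 to 18.6 M in NT. NT 5 stood apart from its group, with a chi-square per degree of freedom of 7.93 to 11.2 against the other NT libraries, and the 4 calls of members that follow all held without it (edgeR adjusted p 0.000105 to 0.0147). That check could hardly fail, because leaving NT 5 out lowers the NT mean of each called gene. NT 5 was the highest NT library for Ppbp and Cxcl10, and its Ccl7 was 13.7 CPM against an NT mean of 13.2. The calls of Ppbp and Cxcl10 were lost without some other libraries, as given below. Among 8 podocyte markers, the adhesion protein gene Podxl, the actin-associated Synpo and the transcription factor gene Wt1 were well detected, whereas Ptpro, a podocyte phosphatase, had 1 count over all libraries. The summed CPM of the 8 markers (counts relative to the TMM-scaled library total in M) was 682 to 698 in HF, 702 to 719 in RT and 680 to 746 in NT. Of these markers, Wt1 fell in HF against NT (log2 fold change -0.16 ± 0.04 SE, adjusted p = 0.0113 in edgeR) and in RT against NT (-0.24 ± 0.04, adjusted p = 6.16e-05). Of 13 leukocyte and platelet markers, Itgam, Adgre1, Tyrobp and Cd3e had no count in any library and Ptprc had 3 counts, in 1 library. The list summed to 74.0 to 88.1 CPM in HF, 77.6 to 85.0 in RT and 79.6 to 96.8 in NT, most of it from Cd14, a co-receptor for bacterial lipopolysaccharide. Of its 5 tested genes, none was called by edgeR or DESeq2 in any comparison. By limma voom, 1 of the 5, Fcgr1, was called in HF against NT, beside 334 of all tested genes. Endothelial markers summed to at most 1.15 CPM in any library. The 6 tubule markers summed to 1458 to 1807 CPM in HF, 1517 to 1705 in RT and 1419 to 1773 in NT, mostly from the cadherin gene Cdh16 (976 CPM in HF, 976 in RT and 977 in NT on average) and the endocytic receptor gene Lrp2, while Epcam had no count. None of the 3 tested tubule markers was called by edgeR, DESeq2 or limma voom. Over all tested genes, edgeR called 2.33% in HF against NT, 0.211% in HF against RT and 3.97% in RT against NT. By edgeR, 1 of the 3 had an unadjusted p under 0.05 in HF against NT, beside 14.2% of all tested genes. These are bulk libraries, in which fewer cells of a type and less RNA per cell cannot be told apart.

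Chemokines are small secreted proteins that guide migrating cells along gradients through G protein-coupled receptors. They are classed by the spacing of their first cysteines, as CC (Ccl genes), CXC (Cxcl genes and Ppbp) or CX3C (Cx3cl1). Many are held at low levels in resting tissue and are transcribed on NF-kB, AP-1 or interferon signals. In the kidney, resident cells of the glomerulus can release them to draw in monocytes, neutrophils or T cells.

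The promoter sequences of 3 members are shown because these genes were set apart between surfaces or carry the motifs for which such genes are known. Each is the 250 bases before the annotated start, 5′ to 3′ on the gene's strand, from RefSeq on GRCm38.p6, and capitals mark motif matches on either strand. Cxcl10 lies on the minus strand at chr5:92348890-92349139, Ppbp on the plus strand at chr5:90768268-90768517, and Cxcl1 on the plus strand at chr5:90890995-90891244.
Cxcl10: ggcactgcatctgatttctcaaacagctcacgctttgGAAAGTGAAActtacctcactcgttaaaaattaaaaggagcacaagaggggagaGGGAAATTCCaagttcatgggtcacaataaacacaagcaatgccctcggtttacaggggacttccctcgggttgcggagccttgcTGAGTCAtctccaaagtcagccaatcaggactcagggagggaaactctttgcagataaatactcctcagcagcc
Ppbp: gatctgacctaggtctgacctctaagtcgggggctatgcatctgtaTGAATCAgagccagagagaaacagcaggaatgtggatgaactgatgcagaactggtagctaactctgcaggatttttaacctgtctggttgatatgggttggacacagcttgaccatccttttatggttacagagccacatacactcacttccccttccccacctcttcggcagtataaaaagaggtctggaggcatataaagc
Cxcl1: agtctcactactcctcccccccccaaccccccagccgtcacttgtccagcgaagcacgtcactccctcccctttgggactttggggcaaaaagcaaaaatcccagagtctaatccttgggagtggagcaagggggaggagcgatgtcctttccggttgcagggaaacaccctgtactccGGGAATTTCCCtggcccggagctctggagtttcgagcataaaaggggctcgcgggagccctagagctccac

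In Cxcl10, capitals mark an interferon response match (GAAA, any 2 bases, GAAA) at 213 to 204 bases before the start, an NF-kB match (GGGA, any 2 bases, TTCC) at 159 to 150 bases and an AP-1 match (TGANTCA) at 74 to 68 bases. Ppbp held an AP-1 match at 204 to 198 bases before its start. Cxcl1 held a pair of overlapping NF-kB matches, 1 on each strand, at 71 to 62 and 70 to 61 bases. RefSeq promoters were at hand for 6 of the 10 members, the other three being Cxcl12, Cx3cl1 and Csf1. The NF-kB pattern occurred in 3 of these 6, Csf1 included, against 1.21% of 32851 mouse promoters of the same length. The interferon pattern occurred in 1 of the 6 and in 2.98% of all promoters, and the AP-1 pattern in 2 of the 6 and in 6.75%. A match describes the letters of this window and no more.

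The members differed widely in level. Per kb of exon, Csf1 was highest at a mean of 298 CPM per kb over all libraries (range 269 to 314) and stood 66th of the 14941 tested genes that had a length. Cxcl12 followed at 80.4 CPM per kb and Ccl2 at 58.6. Cx3cl1 had 24.5 CPM per kb and Ccl7 21.3. Cxcl1 had 8.29 CPM per kb, Cxcl16 4.90, Ppbp 3.66 and Cxcl10 0.938. Cxcl5 was lowest at 0.336 CPM per kb, from 3 to 27 counts per library. Ranges over libraries overlapped for the neighbours Cxcl12 and Ccl2, Cx3cl1 and Ccl7, Cxcl16 and Ppbp, and Cxcl10 and Cxcl5. Within each library Cxcl12 was above Ccl2, most narrowly in HF 3 (76.6 against 76.1 CPM per kb). In the other pairs the order turned in some libraries, so it was not clear beyond the spread. In HF, Ppbp averaged 5.89 CPM per kb and Cxcl16 5.27, whereas in RT Ppbp averaged 2.45 and Cxcl16 4.70, and in NT Ppbp averaged 2.43 and Cxcl16 4.69.

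**Figure D1:**
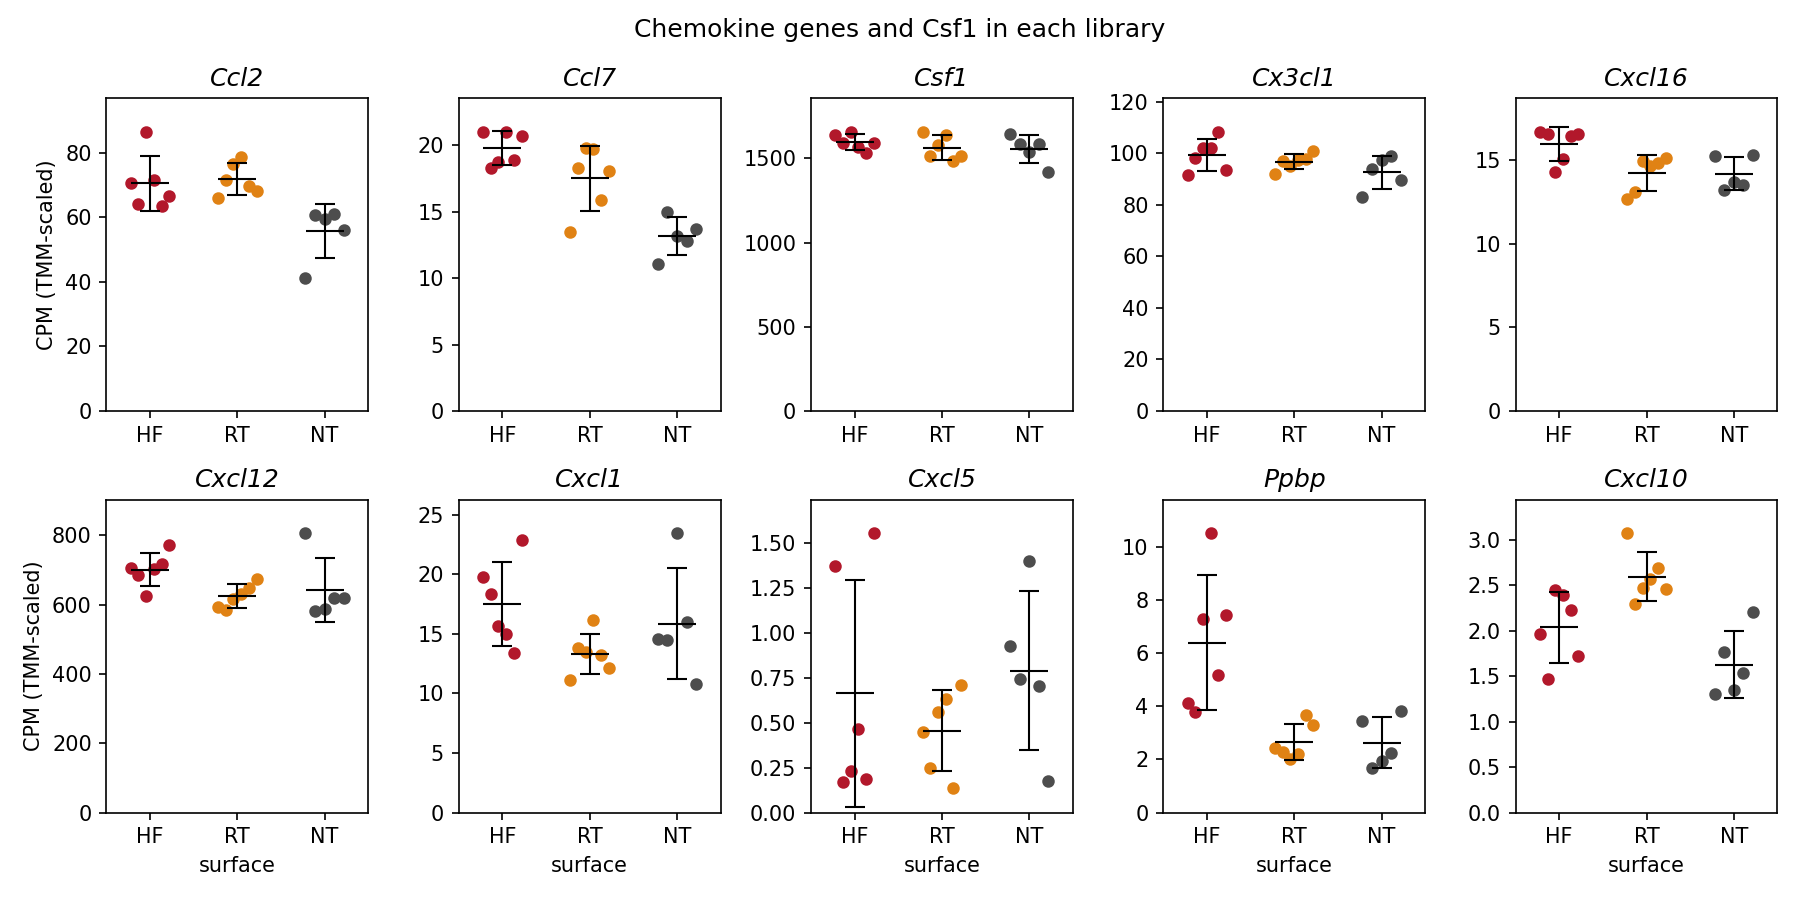
CPM of each of the 10 genes in every library, with 1 panel per gene and its own axis, HF left of RT and RT left of NT. Points are libraries and bars are the group mean with its SD. Ppbp was 3.78 to 10.5 CPM in HF, above all RT libraries (2.02 to 3.67 CPM), and Ccl7 was 18.3 to 21.0 CPM in HF, above all NT libraries (11.1 to 15.0 CPM).

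On the fractal surface, Ccl7 and Ppbp rose against NT, and they were the 2 of 10 members that passed the test there. That is beside 1.50% of all tested genes that rose in this comparison (2.33% called in either direction). On the round surface, Ccl7 and Cxcl10 rose against NT, again 2 of 10, beside 2.53% of all tested genes (3.97% in either direction). Between HF and RT no member passed, beside 0.211% of all genes called, though 5 of 10 members had an unadjusted p under 0.05 in edgeR, beside 1216 of all 15196 genes. DESeq2 and limma voom each called 1 member there, Ppbp. For HF against NT the median log2 fold change over the members was 0.15, with 9 of 10 positive, beside -0.0025 and 49.0% positive over all tested genes. For HF against RT it was 0.16, with 8 of 10 positive, beside -0.0007 and 49.6%. For RT against NT it was 0.02, with 7 of 10 positive, beside -0.0021 and 49.1%. HF against NT and RT against NT share the NT libraries. Because the members were chosen with earlier results of these data known, these shares describe the list and measure no excess over other genes. Adjusted p-values are from edgeR's quasi-likelihood F test with Benjamini-Hochberg adjustment over all tested genes, and a call is an adjusted p under 0.05.

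**Figure D2:**
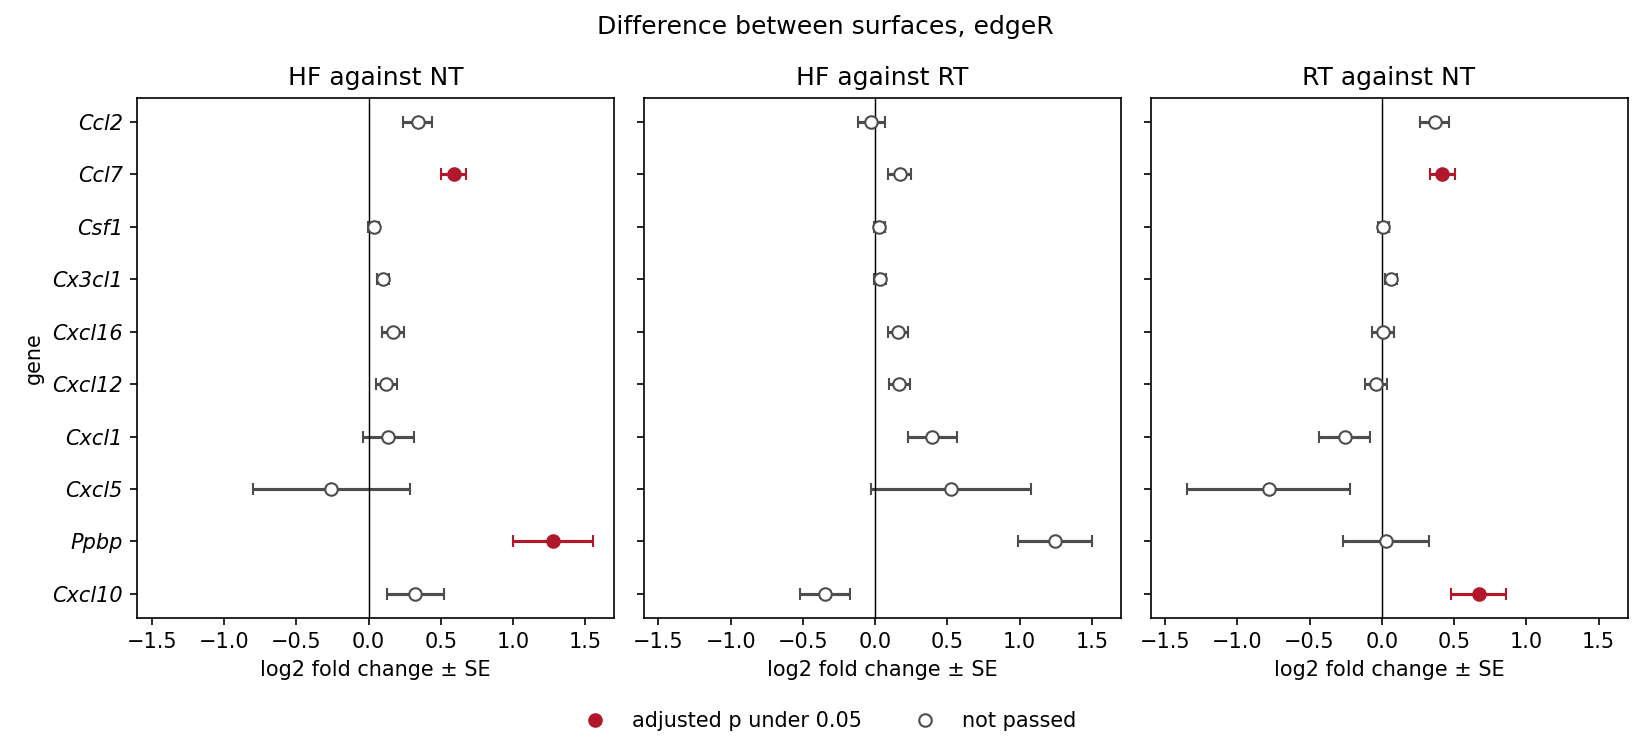
Log2 fold change of each gene in the comparison of HF with NT, of HF with RT and of RT with NT, with the standard error as bars and filled marks for an adjusted p under 0.05. Ccl7 was called in HF against NT (0.59) and in RT against NT (0.42), Ppbp in HF against NT (1.28) and Cxcl10 in RT against NT (0.67).

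Ccl2 and Ccl7 are neighbouring genes on chromosome 11 and encode monocyte attractants that both act through the receptor CCR2. Ccl7 ranged from 18.3 to 21.0 CPM in HF (median 19.8) and from 13.5 to 19.8 CPM in RT (median 18.2), and was 11.1, 15.0, 13.2, 12.8 and 13.7 CPM in NT libraries 1 to 5. Every HF library and 5 of 6 RT libraries were above the highest NT library. Ccl7 rose 1.5-fold in HF against NT (log2 fold change 0.59 ± 0.09 SE, adjusted p = 0.000125) and 1.34-fold in RT against NT (0.42 ± 0.09, adjusted p = 0.00321). HF averaged 19.8 ± 1.27 CPM and RT 17.5 ± 2.45 CPM (SD, n = 6 each), a difference of 0.17 ± 0.08 on the log2 scale that did not pass (adjusted p = 0.579).

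Ccl2, the best known of the monocyte attractants, ranged from 63.6 to 86.6 CPM in HF (median 68.7) and from 65.9 to 78.9 CPM in RT (median 70.7). In NT it was 41.2, 60.7, 59.6, 61.0 and 56.2 CPM. All HF and all RT libraries were above all NT libraries, yet neither difference passed the threshold. The log2 fold change was 0.34 ± 0.10 for HF against NT (adjusted p = 0.0977) and 0.37 ± 0.10 for RT against NT (adjusted p = 0.0538). Without the lowest library, NT 1, the difference between RT and NT passed at an adjusted p of 0.0330, and without the highest HF library, HF 3, at 0.0148. HF and RT overlapped throughout, with a log2 fold change of -0.03 ± 0.09 (adjusted p = 0.981). The members whose libraries were all above those of NT were Ccl2 and Ccl7 in HF, 2 of 10 beside 1.25% of all tested genes, and Ccl2 and Cxcl10 in RT, 2 of 10 beside 2.18%.

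The other CC genes at the same place were nearly silent. Ccl11, an eosinophil attractant, had 64 counts over all libraries, Ccl12 and Ccl8 had 2 each and Ccl1 had none. Ccr2, which encodes the receptor of Ccl2 and Ccl7, had no count in any library.

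**Figure D3:**
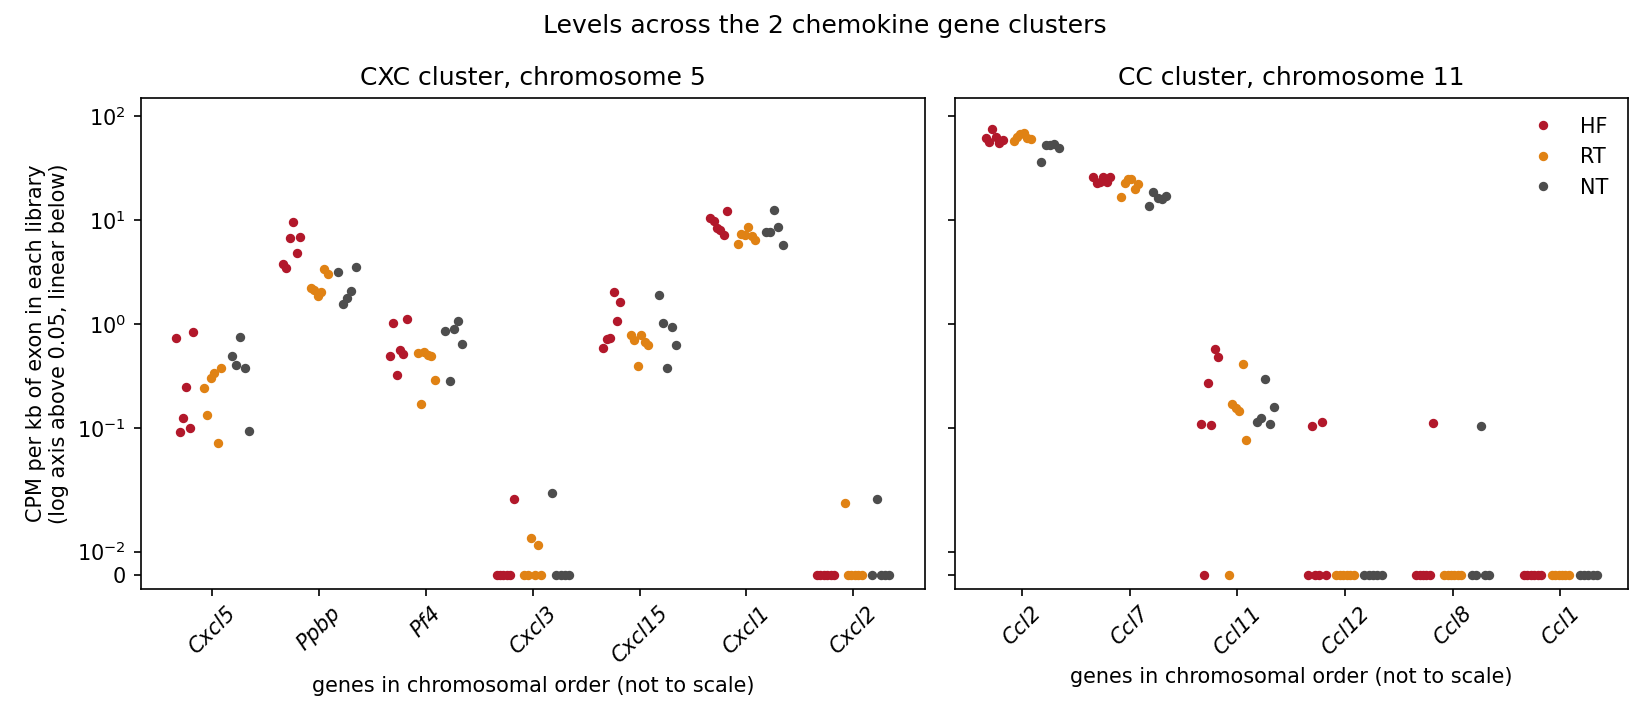
CPM per kb of exon in each library for the 7 genes of the CXC cluster on chromosome 5 and the 6 of the CC cluster on chromosome 11, in chromosomal order, on an axis that is logarithmic above 0.05 and linear below. Ccl2 and Ccl7 stood far above the other CC genes, and in the CXC cluster Cxcl1 and Ppbp were highest while Cxcl2 and Cxcl3 were near 0.

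Ppbp had the largest fold change of any member. It encodes platelet basic protein, the precursor of the neutrophil attractant CXCL7, which is best known as a product of platelet granules. Ppbp ranged from 3.78 to 10.5 CPM in HF (median 6.23) and from 2.02 to 3.67 CPM in RT (median 2.36), and was 3.46, 1.69, 1.93, 2.23 and 3.82 CPM in NT. HF did not overlap RT, and 5 of 6 HF libraries were above the highest NT library. Ppbp rose 2.42-fold in HF against NT (1.28 ± 0.28, adjusted p = 0.0197), a call that was lost without NT 2 (adjusted p = 0.0547), NT 3 (0.0677) or NT 4 (0.0565). HF was 2.37-fold above RT (1.24 ± 0.26), just short of the threshold (adjusted p = 0.0572), and the difference passed without HF 1 (0.0370), HF 2 (0.0178), RT 5 (0.0483) or NT 5 (0.0416). It was the 1 member of 10 whose HF libraries were all above those of RT, beside 0.447% of all tested genes. RT against NT gave 0.03 ± 0.30 (adjusted p = 0.978). HF libraries also varied most among themselves, at 6.38 ± 2.54 CPM (SD, n = 6), a coefficient of variation of 39.8%.

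No platelet marker passed between surfaces in edgeR. Gp9, a subunit of the platelet receptor for von Willebrand factor, had 23 counts over all libraries. Gp1ba, another subunit, averaged 5.74 ± 0.982 CPM in HF, 5.37 ± 0.836 in RT (SD, n = 6 each) and 6.16 ± 1.05 in NT (SD, n = 5), and its log2 fold change in HF against NT was -0.10 ± 0.13 (adjusted p = 0.805). Itga2b, a platelet integrin, averaged 6.57 ± 0.735 CPM in HF, 7.004 ± 0.578 in RT and 7.75 ± 1.80 in NT, with -0.24 ± 0.12 for HF against NT (adjusted p = 0.361). Pf4, the platelet factor gene beside Ppbp in the cluster, had 0.485 ± 0.229 CPM in HF, 0.306 ± 0.112 in RT and 0.539 ± 0.216 in NT. Its log2 fold change was -0.16 ± 0.38 in HF against NT (adjusted p = 0.904).

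Cxcl1 and Cxcl5 encode neutrophil attractants that share the receptor CXCR2 and lie in the same cluster as Ppbp. Cxcl1 ranged from 13.4 to 22.9 CPM in HF (median 16.97) and from 11.1 to 16.1 CPM in RT (median 13.3), and was 14.6, 14.5, 23.5, 16.0 and 10.8 CPM in NT. The groups overlapped in every comparison, and NT held both the lowest and the highest library of the study. HF against RT gave 0.40 ± 0.17 (adjusted p = 0.549), HF against NT 0.14 ± 0.18 (adjusted p = 0.798) and RT against NT -0.26 ± 0.18 (adjusted p = 0.528). Cxcl5 had 0.663 ± 0.630 CPM in HF, 0.455 ± 0.224 in RT (SD, n = 6 each) and 0.789 ± 0.440 in NT (SD, n = 5). Its standard errors in the main fit were 0.54 to 0.56 on the log2 scale, so a change of 1.5-fold could not have been told from the spread between libraries. With the replicate block in edgeR they were 0.39 to 0.41, and no comparison passed for Cxcl5 (RT against NT -1.08 ± 0.41, adjusted p = 0.113). HF libraries alone ran from 3 to 27 counts, a coefficient of variation of 95.1%. Of the cluster's other genes, Cxcl15 averaged 2.41 ± 1.24 CPM in HF, 1.41 ± 0.307 in RT and 2.08 ± 1.24 in NT and did not pass. Cxcl3 had 6 counts and Cxcl2 2 over all libraries. Cxcr2, their receptor gene, had 1 count.

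Cxcl10 is induced by interferons and attracts activated T cells through CXCR3. It ranged from 1.47 to 2.45 CPM in HF (median 2.09) and from 2.29 to 3.07 CPM in RT (median 2.52), and was 1.30, 1.76, 1.34, 1.53 and 2.20 CPM in NT. All RT libraries were above all NT libraries, while HF overlapped both. Cxcl10 rose 1.59-fold in RT against NT (0.67 ± 0.19, adjusted p = 0.0375). HF against NT gave 0.32 ± 0.20 (adjusted p = 0.484) and HF against RT -0.35 ± 0.17 (adjusted p = 0.642). The counts were 21 to 60 per library, and the call was lost when any of 8 libraries was left out: NT 1 (0.0930), NT 3 (0.118), NT 4 (0.0814), RT 1 (0.0831), RT 3 (0.0553), RT 4 (0.0669), RT 5 (0.0601) or RT 6 (0.0537). Exons of Art3 cover 5.91% of its exonic length on the other strand, and non-directional libraries cannot separate the pair there.

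Other interferon-induced genes did not rise on the round surface. Of 16, 14 were tested, and in RT against NT 3 fell and none rose, with a list median of -0.38 and 1 of 14 positive, beside 1.44% of all genes that fell. DESeq2 called 8 and limma voom 5. Zbp1, a sensor of Z-form nucleic acids, averaged 3.97 ± 0.469 CPM in RT and 6.44 ± 1.89 in NT (-0.71 ± 0.16, adjusted p = 0.00595). The transcription factor gene Irf1 fell by 0.16 ± 0.04 on the log2 scale (adjusted p = 0.0308), a call lost without NT 3, NT 4, RT 1, RT 3, RT 4 or RT 6 (adjusted p 0.0525 to 0.141). Irf1 also missed the threshold with no filter (0.0502), with only the 2 groups fitted (0.0543) and with libraries numbered 1 to 5 (0.0585).
In HF against NT, Zbp1 (-0.65 ± 0.16, adjusted p = 0.0201) and Usp18, a brake on interferon signalling (-0.57 ± 0.14, adjusted p = 0.0218), fell, the list median was -0.41, and 0.829% of all genes fell. DESeq2 called 7 and limma voom 3. Zbp1 lost this call without NT 5 (0.0769) or HF 4 (0.0623) or with only the 2 groups fitted (0.0618). Usp18 lost it without HF 3 (0.0513) or HF 4 (0.0652), with only the 2 groups fitted (0.0669) and with libraries numbered 1 to 5 (0.0578). The list summed to 464 to 496 CPM in HF and 480 to 513 in RT, and to 444, 543, 543, 516 and 712 CPM in NT libraries 1 to 5, so that NT 1 was below all other libraries and NT 5 far above them. Without NT 5, the list median was -0.16 in HF against NT and -0.18 in RT against NT, with 2 and 4 genes lower, and Usp18 in HF against NT was -0.37 ± 0.11 (adjusted p = 0.0475). Without NT 1, 6 genes were lower in HF against NT and 8 in RT against NT. Without HF 4 none was called in HF against NT, and without HF 3 there was 1 call.

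Cxcl12, a constitutive chemokine that podocytes make during development of the glomerulus, ranged from 626 to 771 CPM in HF (median 704) and from 585 to 675 CPM in RT (median 624.7). In NT it was 807, 583, 587, 621 and 619 CPM, with NT 1 above every other library of the study. HF against RT gave 0.17 ± 0.07 (adjusted p = 0.557), with 5 of 6 HF libraries above the highest RT library, and HF against NT gave 0.12 ± 0.08 (adjusted p = 0.504). Without NT 1, both passed, at 0.22 ± 0.04 for HF against NT (adjusted p = 0.00306) and 0.17 ± 0.04 for HF against RT (adjusted p = 0.0497), and RT against NT was 0.05, against -0.04 with it. NT 1 was also the lowest NT library for Ccl2, Ccl7, Cxcl10 and Cx3cl1 and the highest for Csf1. Cxcr4, the signalling receptor of CXCL12, had no count, while Ackr3, which scavenges it, averaged 53.9 ± 1.96 CPM in HF, 59.6 ± 1.87 in RT and 58.2 ± 6.44 in NT and did not pass in any comparison.

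Cx3cl1 and Cxcl16 encode chemokines made as membrane proteins on a mucin stalk and released by the proteases ADAM10 and ADAM17. Cx3cl1 averaged 99.3 ± 6.21 CPM in HF, 96.7 ± 2.98 in RT (SD, n = 6 each) and 92.6 ± 6.39 in NT (SD, n = 5), with overlap throughout. HF against NT gave 0.10 ± 0.04 (adjusted p = 0.272) and RT against NT 0.06 ± 0.04 (adjusted p = 0.508). Cxcl16 averaged 15.9 ± 1.01 CPM in HF, 14.2 ± 1.06 in RT and 14.2 ± 0.996 in NT. In HF, 4 of 6 libraries were above the highest RT library and 4 of 6 above the highest NT library, and neither difference passed (0.16 ± 0.07, adjusted p = 0.527 against RT, and 0.17 ± 0.07, adjusted p = 0.278 against NT). Exons of Zmynd15 on the other strand cover 18.3% of the exonic length of Cxcl16, where reads may go uncounted or may come from either gene. Adam10 averaged 246 ± 8.0 CPM in HF, 254 ± 6.08 in RT and 255 ± 18.3 in NT, and Adam17 averaged 55.8 ± 2.91 CPM in HF, 57.2 ± 3.11 in RT and 56.3 ± 4.31 in NT. Neither passed in any comparison. The receptor genes were scarce, with 10 counts of Cx3cr1 and 79 of Cxcr6 over all libraries.

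Csf1 encodes a growth factor that keeps monocytes and macrophages alive. Its spread within groups was the smallest of any member in HF and NT, while Cx3cl1 was steadier in RT. Csf1 averaged 1597 ± 47.2 CPM in HF, 1565 ± 72.3 in RT (SD, n = 6 each) and 1555 ± 83.6 in NT (SD, n = 5), a coefficient of variation of 2.96% in HF, 4.62% in RT and 5.37% in NT, against 3.09% for Cx3cl1 in RT. Its log2 fold change was 0.04 ± 0.04 in HF against NT (adjusted p = 0.723). HF against RT gave 0.03 ± 0.04 (adjusted p = 0.919) and RT against NT 0.01 ± 0.04 (adjusted p = 0.946). The gene of its receptor, Csf1r, averaged 45.8 ± 5.38 CPM in HF, 50.8 ± 4.93 in RT and 39.4 ± 1.94 in NT. All 6 RT libraries (45.03 to 58.3 CPM) were above all 5 NT libraries (36.6 to 41.6 CPM), beside 2.18% of all tested genes. Csf1r rose in RT against NT by 0.36 ± 0.07 (adjusted p = 0.00385), beside 2.53% of all tested genes that rose. HF against NT gave 0.22 ± 0.07 (adjusted p = 0.124). Hmgxb3 exons on the other strand cover 15.1% of Csf1r, and the macrophage marker Adgre1 was at 0 in every library. Itgam was also at 0, but a same-strand coding gene overlaps 68.7% of its exons, where reads may go uncounted. Il34, the other ligand of this receptor, averaged 12.1 ± 1.05 CPM in HF, 11.96 ± 0.810 in RT and 10.99 ± 0.780 in NT and did not pass.

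Beyond the members, the chemokine system of these cells was small. Of 28 other chemokine ligands, 7 were tested and 8 had no count at all. None was called in any comparison by edgeR, DESeq2 or limma voom, with 2 at an unadjusted p under 0.05 in each comparison by edgeR. The highest by CPM was Ccl27a, at 10.1 ± 0.795 CPM in HF, 9.97 ± 0.529 in RT and 10.8 ± 1.47 in NT. Next came Ccl25, at 8.88 ± 1.11 CPM in HF, 7.96 ± 1.26 in RT and 7.47 ± 1.14 in NT. Of 23 chemokine receptors, 3 were tested (Ackr3, Ccrl2 and Ccr10) and 7 had no count, Cxcr3 among them. None was called by the 3 tools, with at most 1 at an unadjusted p under 0.05 in any comparison by edgeR.

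Of 10 genes for enzymes and inhibitors that process chemokines, 8 were tested. In HF against NT 1 of the 8 rose, beside 1.50% of all tested genes, and in RT against NT 2 of the 8 rose, beside 2.53%. Mmp2, a gelatinase that can trim chemokines, rose in HF against NT (0.16 ± 0.04, adjusted p = 0.0197) and in RT against NT (0.15 ± 0.04, adjusted p = 0.0221). Its CPM was 291 ± 11 in HF, 289 ± 11.5 in RT and 261 ± 16.4 in NT. Mmp14, a membrane protease that activates MMP2, rose in RT against NT (0.14 ± 0.03, adjusted p = 0.00577), at 207 ± 2.95 CPM in RT and 188 ± 6.35 in NT. In HF, Mmp14 was 201 ± 5.23 CPM. Its log2 fold change in HF against NT was 0.10 ± 0.03 and did not pass in edgeR (adjusted p = 0.0852), while DESeq2 called it. Mmp2 lost its call in HF against NT without NT 3 (0.0940) or HF 4 (0.0704) or with only the 2 groups fitted (0.0557), and in RT against NT without NT 3 (0.109), RT 3 (0.0557), RT 4 (0.0577) or RT 6 (0.0599) or with libraries numbered 1 to 5 (0.0665). Mesangial and fibroblast markers, as a list, summed to 806 to 880 CPM in HF, 774 to 853 in RT and 677 to 771 in NT, and their part in the result was not tested. Among them Acta2, smooth muscle actin, rose in HF against NT (0.48 ± 0.10, adjusted p = 0.0171, but 0.0749 with only the 2 groups fitted) and in RT against NT (0.48 ± 0.10, adjusted p = 0.0121).

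Of 23 genes of the NF-kB pathway and its feedback, 18 were tested. In HF against NT none was called by limma voom or by edgeR, beside 2.33% of all tested genes in edgeR. DESeq2 called 2 (Tnip1 and Lif), and 8 had an unadjusted p under 0.05 in edgeR, beside 14.2% of all tested genes. In RT against NT 3 of 18 rose, beside 2.53% of all tested genes. These were Nfkb1, the gene of the p50 precursor (0.15 ± 0.04, adjusted p = 0.0191), Nfkbie, an inhibitor of the pathway (0.24 ± 0.06, adjusted p = 0.0192), and the cytokine gene Lif (0.49 ± 0.12, adjusted p = 0.0128). In HF against NT, Nfkb1 gave 0.13 ± 0.04 (adjusted p = 0.0765). Lif averaged 8.91 ± 0.807 CPM in RT and 6.36 ± 0.672 in NT. Nfkb1 lost its call without NT 3 (0.0562) or RT 1 (0.0670), Nfkbie without NT 1 (0.0578) or RT 1 (0.0512), and Lif without NT 4 (0.0531). Of 15 cytokine receptor and adaptor genes, all tested, 1 fell in HF against NT, beside 0.829% of all tested genes. In RT against NT 1 fell, beside 1.44%, and 2 rose, beside 2.53%. Osmr, a subunit of the oncostatin M receptor, fell in HF against NT (-0.20 ± 0.04, adjusted p = 0.00666) and in RT against NT (-0.34 ± 0.04, adjusted p = 6.16e-06). Osmr averaged 322 ± 21.9 CPM in HF, 292 ± 8.05 in RT and 369 ± 23.6 in NT. In RT against NT, Ifngr2, a subunit of the interferon-gamma receptor, rose (0.23 ± 0.04, adjusted p = 0.00182), as did Il17rc, a subunit of the interleukin-17 receptor (0.16 ± 0.04, adjusted p = 0.0307). Il17rc lost that call without NT 2, NT 3, RT 4, RT 5 or RT 6 (adjusted p 0.0574 to 0.105) and with libraries numbered 1 to 5 (0.0716). Ifngr2 was also called in HF against NT by DESeq2, but not by edgeR or limma voom. In HF against RT none of the enzyme, NF-kB, cytokine receptor or interferon genes was called by the 3 tools, and 0, 1, 3 and 0 of them had an unadjusted p under 0.05 in edgeR.

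The genes most like each member across the 17 libraries are given as a description, with r for log2 CPM among about 12210 candidate genes. The points share surfaces, depth and library handling. Ccl2 ran closest with Gdf15 (r = 0.89), Snrpe (0.88) and Btg2 (0.87). For Ccl7 the nearest were Sytl2 (0.89), Kif21b (0.87) and Gga2 (0.84), and for Cxcl10 Csrp1 (0.93), Cyba (0.91) and Acads (0.90). Ppbp ran with Sprr1a (0.87), Zkscan17 (0.86) and Fscn1 (0.86). Cxcl1 ran with Exoc1 (0.85), Hp (0.84) and Lcn2 (0.84), and Cxcl12 with Sec31a (0.89), Ets1 (0.84) and Gm2115 (0.84). Cxcl16 was nearest to Col20a1 (0.87), Cx3cl1 to Irf2bpl (0.87), Csf1 to Peak1 (0.86) and Cxcl5, at few counts, to Ift140 (0.84). No member was among the 3 genes nearest to another member.

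**Figure D4:**
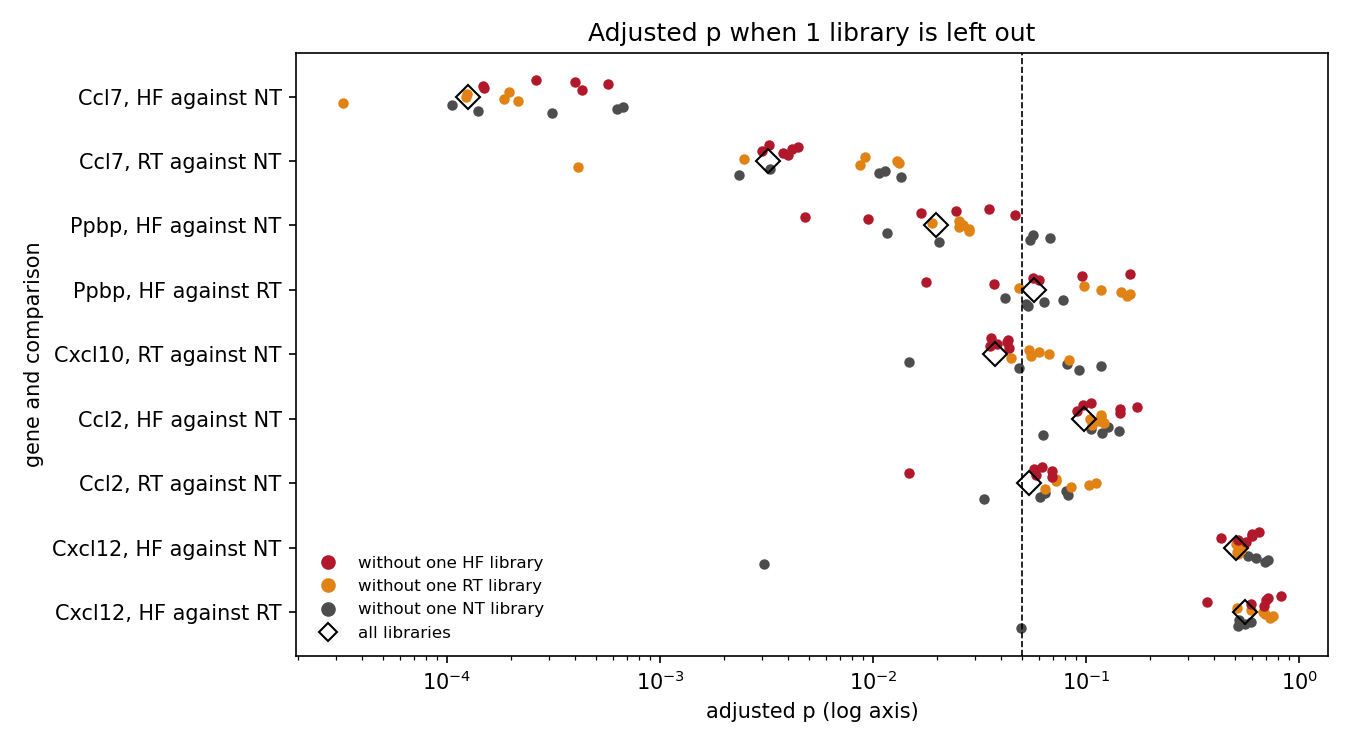
Adjusted p of selected genes and comparisons when 1 library is left out, on a log axis, with the colour giving the group of the library left out, open diamonds for all libraries and a dashed line at 0.05. Ccl7 stayed under the line in both comparisons with NT, whereas Ppbp and Cxcl10 crossed it, and Cxcl12 in HF against NT dropped to 0.00306 without NT 1.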

How the data were processed

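Poly-A RNA from 17 libraries of E11 cells was sequenced in pairs without strand information, per the labels' protocols. The deposited table holds raw counts per gene, with no normalization by the authors. The submitters' processing notes name HISAT2 2.0.5, featureCounts 1.5.0-p3 and the build GRCm39, and the annotation release and strand setting are not given in the sources used here. All columns were used, and no pair of libraries in a group matched within counting noise (chi-square per degree of freedom 2.63 to 11.2 over 40 pairs).

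Counts were filtered with filterByExpr, scaled by TMM and fitted in edgeR 4.0.16 (quasi-likelihood, robust, 1 mean per group, all libraries in 1 fit), after the script was tested on simulated data. P-values are two-sided, with Benjamini-Hochberg adjustment and a threshold of 0.05. Standard errors are the log2 fold change over the square root of F. Symbols, for 52073 of 56748 genes, exon lengths and overlaps came from GENCODE M21 (GRCm38), promoters from RefSeq (GRCm38.p6).

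Named genes are all 10 members, the called genes of each list (otherwise its 2 highest by CPM) and the 3 genes most correlated with a member, taken where average log2 CPM was 1 or more. Pf4, Cxcl15, Adam10, Adam17, platelet, receptor and neighbouring cluster genes named beside these were picked with their values known. Some listed genes are not reported here. The members and gene lists were chosen with earlier results of these data known. Alternatives were RLE size factors, no filter, DESeq2 1.42.0, limma voom 3.58.1, fits of 2 groups only, a replicate block, libraries numbered 1 to 5 (added after seeing the data) and leaving out each library.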

Additional observations from a re-analysis of the deposited data

Results flagged for a closer look

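Each of the 30 combinations of a member and a surface was checked for a library far from the others by Dixon's ratio, the gap to the nearest library over the whole range, and 3 were marked. Chance marks about 1 in 20 groups. Ccl2 in HF 3 was 86.6 CPM, with the next HF library at 71.7 CPM (ratio 0.647). Ccl2 in NT 1 was 41.2 CPM, with the next NT library at 56.2 CPM (ratio 0.759). Cxcl12 in NT 1 was 807 CPM, with the next NT library at 621 CPM (ratio 0.832).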

How the results depend on the processing

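Ccl7 was called in HF against NT and in RT against NT in all 17 fits that left out 1 library and under all 7 other settings. The 10 members gave 717 recomputed values, of which 659 kept their direction and side of the threshold, 15 lost a call, 19 gained one and 24 turned sign without a call. The number of members called in HF against NT was 2, or 3 by DESeq2, limma voom or the replicate block. It was 1 with only the 2 groups fitted (Ppbp lost its call, adjusted p = 0.0743). In HF against RT it was 0, or 1 (Ppbp) with no filter (adjusted p = 4.8e-09), DESeq2 (0.00421), limma voom (0.0339) or the replicate block (0.0217). In RT against NT it was 2, or 3 by DESeq2, limma voom or the replicate block. It was 1 with no filter and with libraries numbered 1 to 5, since Cxcl10 missed the threshold there (adjusted p = 0.0603 and 0.0531), as Cxcl10 did with only the 2 groups (0.0510). Ccl2 was called in HF against NT by DESeq2 (0.0243), limma voom (0.0252) and the block (0.0150), and in RT against NT by those 3 (0.0092, 0.00732 and 0.00627) and with only the 2 groups (0.0468). Leaving out 1 library, the members called were 1 to 3 in HF against NT, 0 to 1 in HF against RT and 1 to 3 in RT against NT.

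Over all genes, HF against NT had 354 calls, or 597 with no filter, 546 by DESeq2, 200 with only the 2 groups and 637 with the block, and 202 (without NT 3) to 604 (without NT 5) with 1 library left out. HF against RT had 32 calls, or 148, 84, 113 and 125 in the same order, 15 with libraries numbered 1 to 5, and 14 to 89 with 1 left out. RT against NT had 603, or 822, 826, 510 and 995 in the same order, and 365 to 806 with 1 left out. The causes were not tested.

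Among small differences, RT against NT turned negative for Cxcl16 (-0.0080 with the block, -0.0141 with libraries numbered 1 to 5) and Ppbp (-0.0352 and -0.0476). With 1 library left out, RT against NT ran from -0.0765 to 0.0532 for Cxcl12, -0.0174 to 0.0370 for Cxcl16, -0.0896 to 0.206 for Ppbp and -0.0240 to 0.0292 for Csf1, HF against RT from -0.0919 to 0.0040 for Ccl2, and HF against NT from -0.709 to 0.0701 for Cxcl5.

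Libraries of the same replicate number were weakly alike. Over 16 same-number pairs the correlation of deviations ran from -0.0111 to 0.193, and 2 were over 0.1. The median was 0.046, against -0.0171 for pairs of other numbers. In 15 of 32 checks a library correlated best with its own number among the 5 or 6 libraries of another surface. If the numbers carried no meaning, about 1 in 5 or 6 checks would do so. The 32 checks are not independent, since each of the 16 pairs enters from both sides. The main fit held no term for the number, and the replicate block gave more calls over all genes in each comparison, as given above. The labels do not say whether the numbers mark a shared batch. A test of replicate number called 185 genes (1.22%), or 704 with no filter and 116 to 277 with 1 library left out. It called 1 member, Cxcl5 (adjusted p = 0.0475), or 3 with no filter and 0 to 1 with 1 left out. DESeq2 gave Cxcl5 no adjusted p. Counts were fewest for Cxcl5 and Cxcl10, at 3 to 27 and 21 to 60 per library.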
